A study of Mus musculus with 6 samples.

Results

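The clustered protocadherins are cell adhesion proteins of the cadherin superfamily, encoded by neighbouring gene clusters called alpha, beta and gamma. Members were the rows of the expression table whose symbol is Pcdha, Pcdhac, Pcdhb, Pcdhga, Pcdhgb or Pcdhgc followed by a number. This rule gave 58 of the 24264 genes, of which 14 belonged to the alpha cluster, 22 to the beta cluster and 22 to the gamma cluster. The alpha cluster held 12 Pcdha and 2 Pcdhac genes, and the gamma cluster held 12 Pcdhga, 7 Pcdhgb and 3 Pcdhgc genes.

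RNA was sequenced from lumbar dorsal root ganglia (DRG), which hold the cell bodies of sensory neurons and their glia, of mouse embryos at E12.5. The 3 miR_cKO libraries came from mice with Wnt1-Cre and the allele miR-183-96-182-flox in the flox/flox state, in which Wnt1-Cre, active in the neural crest, deletes the gene cluster of these 3 microRNAs. Of the 3 control libraries, controls 1 and 3 were titled Wnt-Cre and control 2 was titled WT, so the Cre was shared by the miR_cKO mice and by controls 1 and 3. All mice had a mixed C57/Bl6 x 129/SvEv background, and the sources used here do not give how many embryos made up a library. The p-values therefore measure the spread between these samples only.

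In the alpha and gamma clusters each gene has its own large first exon, which encodes the extracellular part and is read from its own promoter, and is spliced to constant exons that all members of the cluster share. The beta genes have a single coding exon and no constant exons. A neuron usually reads only a few of the members, from promoters chosen by DNA looping through the insulator protein CTCF and cohesin, and the proteins bind like partners on other membranes, which serves self-recognition and self-avoidance of neurites and neuron survival. The C-type genes (Pcdhac1, Pcdhac2, Pcdhgc3, Pcdhgc4 and Pcdhgc5) lie at the ends of their clusters and are read by rules that differ from those of the other members.

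The deleted microRNAs are shown because their seeds set the sites looked for in the protocadherin transcripts. The capitals mark the seed, bases 2 to 8 of each mature microRNA, as given by RefSeq for GRCm38.p6. There the 3 mature sequences lie on the minus strand of chromosome 6 at 30169711 to 30169732 (miR-183-5p), 30169506 to 30169528 (miR-96-5p) and 30165962 to 30165986 (miR-182-5p).
mmu-miR-183-5p: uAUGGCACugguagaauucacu
mmu-miR-96-5p: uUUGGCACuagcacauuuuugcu
mmu-miR-182-5p: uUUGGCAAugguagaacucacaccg
The 3 seeds are alike but no pair of them is identical. The microRNA genes Mir183, Mir96 and Mir182 were listed at 0 in all 6 libraries, as can be the case for short RNAs in libraries of polyadenylated RNA, so the table does not check the deletion.

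The 3 clusters lie in tandem on the plus strand of chromosome 18. In the GENCODE M21 annotation of mm10, the annotated alpha members spanned 36930184 to 37187661 (257 kb), the beta members 37264938 to 37524479 (260 kb) and the gamma members 37661793 to 37841873 (180 kb). The constant exons of the alpha cluster had 59, 89 and 2712 bases, together 2860 bases, in each of 13 annotated members. Those of the gamma cluster had 59, 89 and 1971 bases, together 2119 bases, in 17 of 22 members. A read from these exons names the cluster and not the member.

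The 3' UTRs were searched on the transcript strand for the letters that pair with the seeds, GTGCCAT or TGCCATA for miR-183, GTGCCAA or TGCCAAA for miR-96, and TTGCCAA or TGCCAAA for miR-182. TGCCAAA counts for both miR-96 and miR-182. At least 1 of these was present in the 3' UTRs of 3619 of 11048 tested genes (32.8%), whose median UTR length was 1035 bases. The 13 annotated alpha members end in the same UTR of 2401 bases, which held 1 miR-182 match. The 21 gamma members with an annotated UTR end in shared UTRs of 1741 or 1744 bases, each with 1 miR-183 match, so the matches of these 34 members are not independent of each other.

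The beta members have UTRs of their own, of 71 to 6117 bases (median 1213 bases), and 6 of 22 (27.3%) held a match. Pcdhb6 and Pcdhb12 each held 1 miR-183 match and Pcdhb22 held 2. Pcdhb16 and Pcdhb19 each held 1 miR-182 match, and Pcdhb4 held 1 match that pairs with both miR-96 and miR-182. A match is a string of letters and not a shown site.

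The library depth, recovered from the steps between the deposited values, was 21.5, 21.3 and 20.0 M mapped reads in miR_cKO 1 to 3 and 20.8, 23.2 and 19.3 M in controls 1 to 3 (M, mega). All 10 sensory neuron markers were detected, with a summed level of 2284 to 3351 RPKM in miR_cKO and 2222 to 2842 RPKM in control libraries. Library miR_cKO 1 stood apart by the genes of the sex chromosomes. Xist was at 96.0 RPKM in it and at most 0.089 RPKM in the other 5 libraries, and Ddx3y was at 0.00979 RPKM in it and at 11.3 to 13.6 RPKM in the others. By these genes miR_cKO 1 read as female and the other 5 libraries as male, so sex was not balanced between the groups. The part of sex in the protocadherin levels was not tested. Other tissues contributed unequally. The 4 red cell markers present summed to 3284, 6281 and 6494 RPKM in miR_cKO 1 to 3. In controls 1 to 3 they summed to 9526, 4951 and 1699 RPKM. The 9 skeletal muscle markers summed to 30.6, 34.2 and 42.1 RPKM in miR_cKO 1 to 3 and to 31.9, 174 and 133 RPKM in controls 1 to 3, and all 9 had a lower mean in miR_cKO, as did all 8 mesenchyme markers. The 8 spinal cord markers summed to 1.44 to 6.36 RPKM in miR_cKO and 1.85 to 2.58 RPKM in control libraries, with Mnx1, a motor neuron factor, at 0 in all.

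The clusters differed widely in level. RPKM counts reads per kilobase of transcript and per M mapped reads, so levels can be compared between genes, but for the alpha and gamma members it includes the shared exons. Gamma members had mean levels over the 6 libraries of 44.0 to 61.6 RPKM, alpha members of 10.71 to 11.98 RPKM, and the 21 detected beta members of 0.214 to 1.97 RPKM. Pcdhb1 was listed at 0 in all 6 libraries. In reads, an alpha member had 882 to 1903 per library, a detected beta member 8 to 198 and a gamma member 4239 to 7038.

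The members of the alpha and gamma clusters also stood close to each other within a library. The coefficient of variation between members was 2.76% to 4.30% over the 6 libraries in the alpha cluster and 5.94% to 7.75% in the gamma cluster. It was 55.2% to 71.2% among all 22 beta members, a spread that includes Pcdhb1, listed at 0. The 14 alpha values are therefore close to 1 measurement made 14 times, and so are the 22 gamma values.

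**Figure D1:**
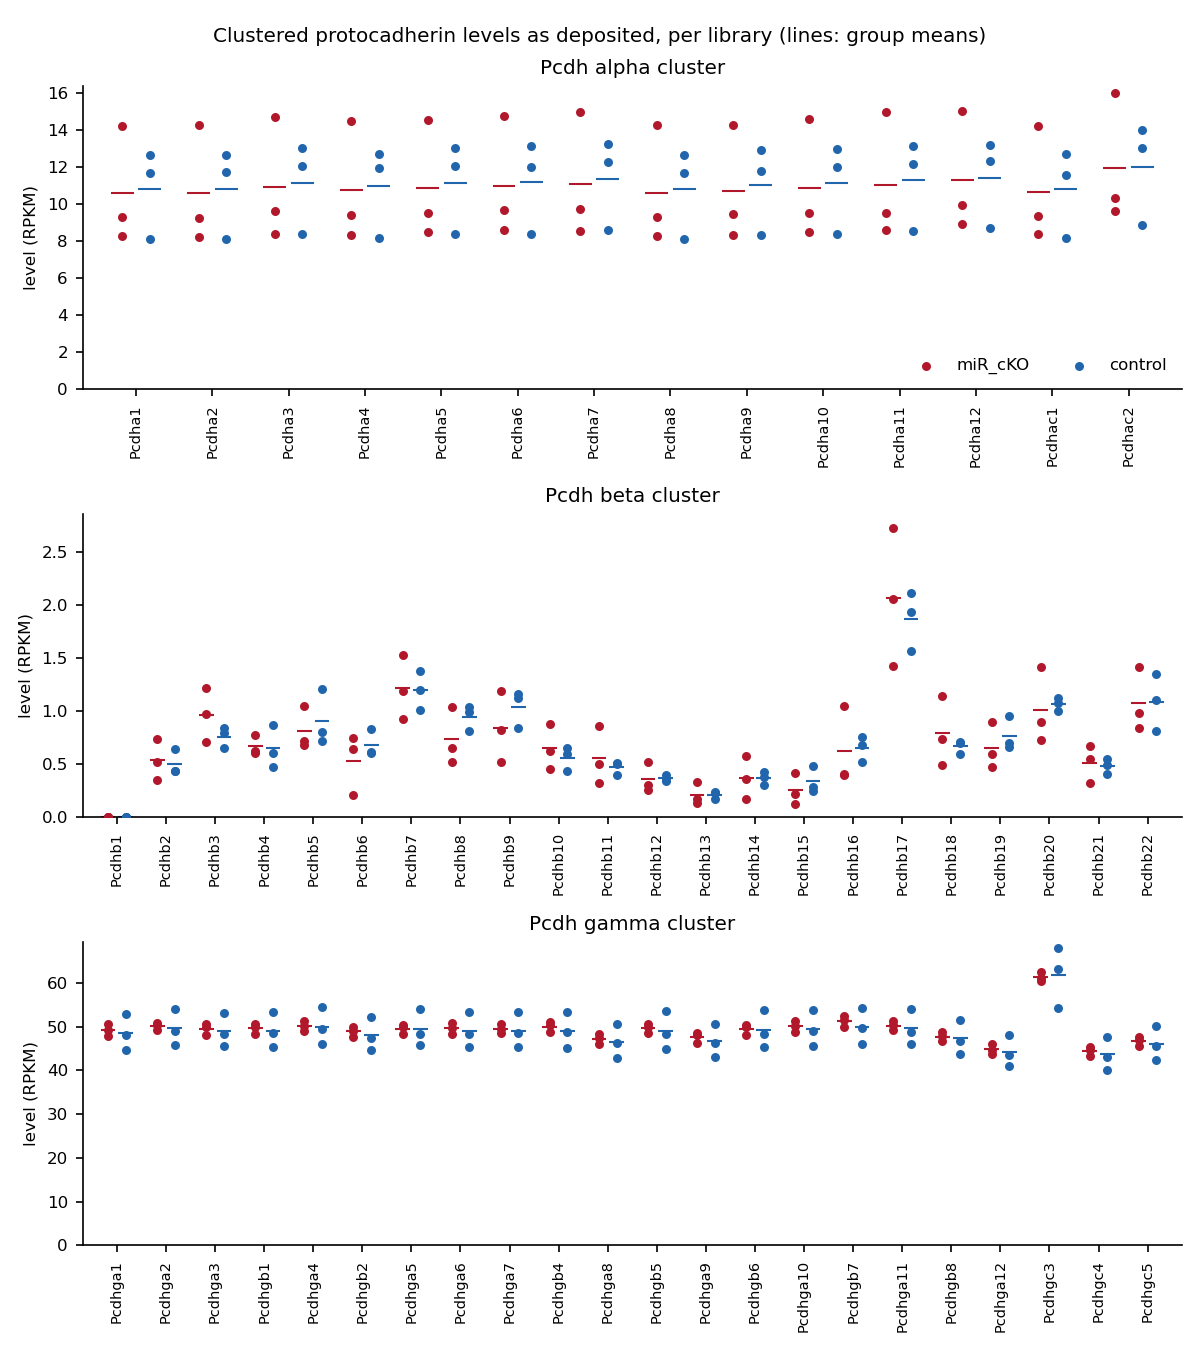
Deposited level in RPKM of each clustered protocadherin in 3 miR_cKO libraries (red points, left) and 3 control libraries (blue points, right), with lines at the group means and panels for the alpha, beta and gamma clusters. The alpha and gamma members repeat the same pattern of points, the beta members lie under 3 RPKM, and the groups overlap for every member.

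No clustered protocadherin passed the threshold between miR_cKO and control libraries. The fit was limma on log2(RPKM + 1) over 13118 genes with at least 1 RPKM in at least 3 libraries, with Benjamini-Hochberg adjustment over all of them and a threshold of 0.05. It called 0 of the 41 members that passed this filter, beside 8 of 13118 genes (0.0610%), of which 7 were higher and 1 lower in miR_cKO. At an unadjusted p under 0.05, limma marked 0 of 41 members, beside 677 of 13118 genes (5.16%). All 41 had an adjusted p of 0.9996 in limma, and the smallest unadjusted p was 0.3654, for Pcdhb9. The miR_cKO and control libraries overlapped in RPKM for all 41 tested members, beside 1426 of 13118 tested genes (10.9%) without overlap. They also overlapped for the members under the filter, among them Pcdhb1, listed at 0. As the alpha and gamma members largely repeat 1 measurement per cluster, these counts of 0 are near the shares of all genes.

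The tested members comprised all 14 alpha genes, all 22 gamma genes and 5 of 22 beta genes, namely Pcdhb7, Pcdhb9, Pcdhb17, Pcdhb20 and Pcdhb22. Pcdhb9 and Pcdhb22 passed with 3 libraries at 1 RPKM or more, while Pcdhb5 (mean 0.865 RPKM) and Pcdhb8 (mean 0.846 RPKM) missed with 2. Without the filter, limma took in 57 members and called 0 of them, with 0 at an unadjusted p under 0.05, a smallest p of 0.2398 and log2 changes of -0.17 to 0.15. Over all genes this fit called 9 of 20024 (0.0449%), with 994 (4.96%) at an unadjusted p under 0.05. Without miR_cKO 1, limma called 2 of 13039 genes (0.0153%) and 0 of the 39 members that passed the filter, with 822 genes (6.30%) and no member at an unadjusted p under 0.05, and the log2 change was -0.22 for Pcdhac2 and -0.27 for Pcdha11.

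The intervals say which changes in the deposited values these libraries leave possible. For alpha and gamma members these values include the shared exons, so the intervals do not bound a change in a member's own first exon. The log2 changes, miR_cKO over control on the log2(RPKM + 1) scale, had a median of -0.042 over the alpha members, -0.0084 over the 5 tested beta members and 0.021 over the gamma members, beside -0.024 over all tested genes. The 95% intervals of the alpha members reached from -0.58 to 0.52, and those of the beta members from -0.55 to 0.50. Those of the gamma members reached only from -0.22 to 0.22. A shift of the size of the alpha intervals was thus not detectable, and a p that misses the threshold does not show equal levels. The 1 RPKM added before taking logs shrinks the changes of the beta members, which lie near that level. With 0.1 RPKM added instead, the log2 change was -0.33 (95% interval -1.09 to 0.43) for Pcdhb9 and 0.10 (-0.50 to 0.71) for Pcdhb17.

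**Figure D2:**
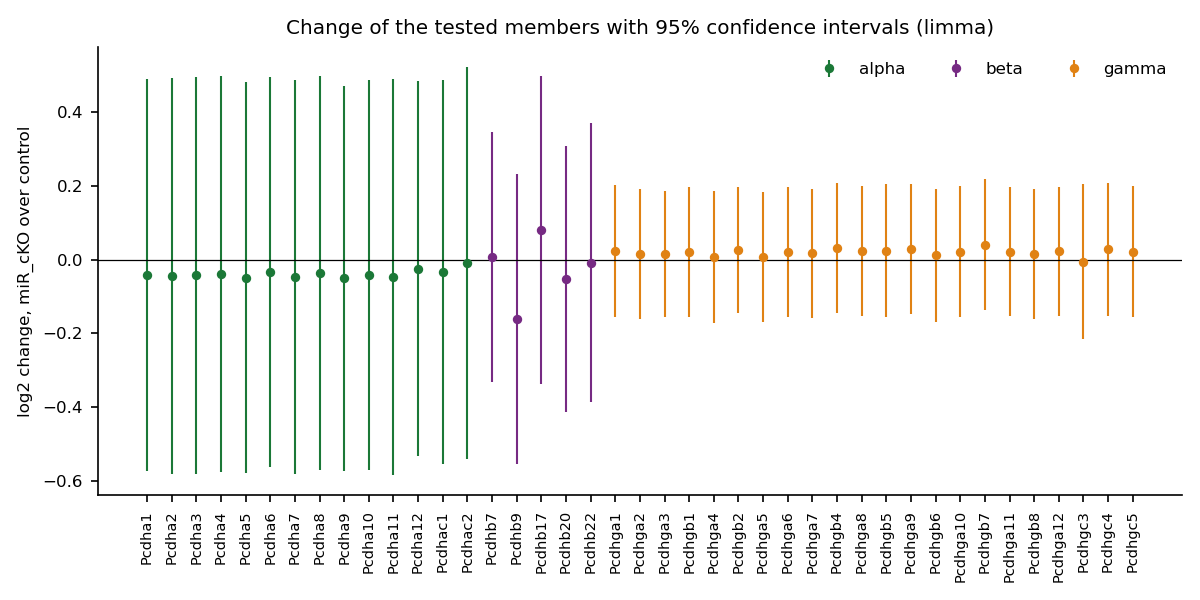
Log2 change, miR_cKO over control, of the 41 tested members with 95% confidence intervals from limma, with alpha in green, beta in purple and gamma in orange. All intervals hold 0, and those of the gamma members, which reach from -0.22 to 0.22, are the narrowest.

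The alpha cluster encodes proteins known in mice for the wiring of olfactory and serotonergic axons. Its lowest member in level, Pcdha1, was at 14.2, 9.29 and 8.26 RPKM in miR_cKO 1 to 3, against 12.7, 8.12 and 11.7 RPKM in controls 1 to 3. Its highest, Pcdhac2, was at 15.99, 10.31 and 9.64 RPKM in miR_cKO 1 to 3, against 14.02, 8.90 and 13.04 RPKM in controls 1 to 3. Pcdhac2 averaged 11.98 ± 3.49 RPKM in miR_cKO and 11.98 ± 2.72 RPKM in control libraries (SD, n = 3 each), and its log2 change was -0.01 with a 95% interval of -0.54 to 0.52 and an unadjusted p of 0.9654 in limma. All 14 alpha members were highest in miR_cKO 1, and for all 14 the 3 lowest libraries were miR_cKO 2, miR_cKO 3 and control 2.

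The beta members follow no shared exon, so each value is the member's own measurement, though reads that fit several of these similar genes cannot be placed with certainty. Pcdhb17 was the highest, at 2.73, 2.07 and 1.43 RPKM in miR_cKO 1 to 3 and 2.11, 1.57 and 1.93 RPKM in controls 1 to 3. Pcdhb7 was at 1.53, 0.926 and 1.20 RPKM in miR_cKO 1 to 3 and 1.20, 1.01 and 1.38 RPKM in controls 1 to 3. For both genes 1 miR_cKO library was above all controls and another below all controls, and neither separated the groups.

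Pcdhb9 had the smallest p of all tested members. It was at 1.19, 0.522 and 0.826 RPKM in miR_cKO 1 to 3 and 1.13, 0.845 and 1.16 RPKM in controls 1 to 3, a log2 change of -0.16 (SE 0.17). Pcdhb22, with its pair of miR-183 matches, was at 1.42, 0.847 and 0.981 RPKM in miR_cKO 1 to 3 and 1.35, 0.815 and 1.11 RPKM in controls 1 to 3. Pcdhb20 was at 1.42, 0.901 and 0.731 RPKM in miR_cKO 1 to 3 and 1.13, 1.01 and 1.08 RPKM in controls 1 to 3. In each of these genes miR_cKO 1 was the highest library, as it was for 16 of the 21 detected beta members.

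The other beta members with a seed match lay under the filter. Pcdhb4 was at 0.778, 0.603 and 0.630 RPKM in miR_cKO 1 to 3 and 0.870, 0.473 and 0.609 RPKM in controls 1 to 3. Pcdhb16 was at 1.05, 0.403 and 0.411 RPKM in miR_cKO 1 to 3 and 0.762, 0.521 and 0.684 RPKM in controls 1 to 3. Pcdhb6 averaged 0.535 ± 0.283 RPKM in miR_cKO and 0.687 ± 0.129 RPKM in control libraries (SD, n = 3 each). Pcdhb12 averaged 0.359 ± 0.140 and Pcdhb19 0.657 ± 0.216 RPKM in miR_cKO, against 0.368 ± 0.028 and 0.773 ± 0.160 RPKM in control libraries (SD, n = 3 each). The groups overlapped for all 6 members with a match.

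The gamma cluster, which in mice is needed for the survival of many spinal and cortical interneurons, was the most abundant. Pcdhgc3, a C-type member known in mice for promoting dendrite growth, was at 62.5, 60.5 and 61.1 RPKM in miR_cKO 1 to 3 and 54.3, 63.3 and 68.0 RPKM in controls 1 to 3. It averaged 61.3 ± 1.02 RPKM in miR_cKO and 61.9 ± 6.91 RPKM in control libraries (SD, n = 3 each), and its log2 change was -0.0059 (SE 0.089) with a 95% interval of -0.22 to 0.20. The 3 miR_cKO libraries lay close together inside the range of the controls.

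Pcdhgc4, the C-type member on which neuron survival depends in mice, was at 45.4, 43.2 and 44.6 RPKM in miR_cKO 1 to 3 and 40.1, 43.1 and 47.7 RPKM in controls 1 to 3. Pcdhgc5 was at 47.7, 45.6 and 46.9 RPKM in miR_cKO 1 to 3 and 42.5, 45.7 and 50.2 RPKM in controls 1 to 3. All 22 gamma members were highest in control 3 and lowest in control 1, so the controls enclosed the miR_cKO libraries for the whole cluster. The summed red cell markers ran the other way, highest in control 1 and lowest in control 3. Their part in the gamma levels was not tested. The largest positive change among tested gamma members was that of Pcdhgb7, at 0.040 log2 (SE 0.075, unadjusted p 0.6066 in limma).

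Because the values were whole multiples of 1 read, the reads of each member could be recovered and the shared exons set aside in part. A read from the constant exons, if counted for every member, adds to all of them alike, so the lowest member of a cluster in a library gives an upper limit on the shared reads. The reads of another member above this lowest value, here called its excess, are then a lower limit on reads of its own first exon. This split was devised after the values were seen. It assumes that all members were counted with the same constant exons, and its results are descriptions with no test.

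Up to this limit, most reads of an alpha or gamma member could be shared reads. In the alpha cluster the lowest member was Pcdha1 in miR_cKO 1 and 2, Pcdha8 in controls 2 and 3, and both alike in miR_cKO 3 and control 1. It had 1639, 1056 and 882 reads in miR_cKO 1 to 3 and 1407, 1008 and 1205 reads in controls 1 to 3. Per M mapped reads this was 76.1 (95% exact Poisson interval 72.4 to 79.8), 49.7 (46.7 to 52.8) and 44.2 (41.3 to 47.2) in miR_cKO 1 to 3, and 67.7 (64.2 to 71.4), 43.4 (40.7 to 46.1) and 62.3 (58.9 to 65.9) in controls 1 to 3. The intervals, which cover counting error only, leave miR_cKO 1, control 1 and control 3 above the other 3 libraries.

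In the gamma cluster the lowest member was Pcdhgc5 in all 6 libraries. It had 229, 219 and 225 reads per M in miR_cKO 1 to 3 and 204, 220 and 241 reads per M in controls 1 to 3. The highest library exceeded the lowest 1.18-fold in the gamma cluster, against 1.75-fold in the alpha cluster. The group means were 225 ± 5.09 reads per M in miR_cKO and 222 ± 18.7 in control libraries for gamma, and 56.6 ± 17.0 in miR_cKO and 57.8 ± 12.8 in control libraries for alpha (SD, n = 3 each).

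The beta cluster, counted by the sum of its reads, moved across libraries much as the alpha cluster did. It had 75.6, 46.8 and 42.7 reads per M in miR_cKO 1 to 3 and 58.8, 47.3 and 59.1 in controls 1 to 3, a 1.77-fold range. The ratio of alpha to gamma reads, each taken from the lowest member, was 33.2%, 22.7% and 19.6% in miR_cKO 1 to 3 and 33.2%, 19.8% and 25.8% in controls 1 to 3. The ratio of summed beta reads to the reads of the lowest gamma member was 33.0%, 21.3% and 19.0% in miR_cKO 1 to 3 and 28.8%, 21.6% and 24.5% in controls 1 to 3. The ratios thus varied between libraries of the same group, with alpha to gamma highest in miR_cKO 1 and control 1 and lowest in miR_cKO 3.

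Summed over members in RPKM, the clusters gave the same picture by group. The alpha sum was 205, 134 and 120 RPKM in miR_cKO 1 to 3 and 182, 117 and 168 RPKM in controls 1 to 3, and log2 of the ratio of group means was -0.028. The beta sum was 21.2, 13.1 and 12.2 RPKM in miR_cKO 1 to 3 and 16.8, 13.4 and 16.8 RPKM in controls 1 to 3, with a log2 ratio of -0.014. The gamma sum was 1109, 1060 and 1091 RPKM in miR_cKO 1 to 3 and 989, 1064 and 1171 RPKM in controls 1 to 3, with a log2 ratio of 0.017. Without miR_cKO 1, the library that stood apart, the log2 ratios were -0.30 for alpha, -0.31 for beta and 0.0014 for gamma.

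Other values moved in part with the alpha and beta levels. The sensory neuron markers summed to 3351, 2812 and 2284 RPKM in miR_cKO 1 to 3 and to 2778, 2222 and 2842 RPKM in controls 1 to 3, so they too were highest in miR_cKO 1 and lowest in miR_cKO 3 and control 2. Unlike the alpha level, this sum was lower in control 1 than in miR_cKO 2. Its mean was higher in miR_cKO (2816 against 2614 RPKM), though 6 of the 10 sensory neuron markers had a lower mean in miR_cKO. The 7 glia and Schwann precursor markers summed to 976, 939 and 861 RPKM in miR_cKO 1 to 3. In controls 1 to 3 they summed to 1089, 818 and 990 RPKM. These glial sums were highest in control 1 and, like the alpha members, lowest in miR_cKO 2, miR_cKO 3 and control 2. The 8 mesenchyme markers summed to 202, 268 and 299 RPKM in miR_cKO 1 to 3 and to 229, 385 and 423 RPKM in controls 1 to 3, so they were lowest in the pair of libraries with the highest alpha level, miR_cKO 1 and control 1, but highest in control 3. The part of these tissues in the protocadherin levels was not tested. In such bulk samples, fewer cells of a type and less RNA per cell cannot be told apart.

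**Figure D3:**
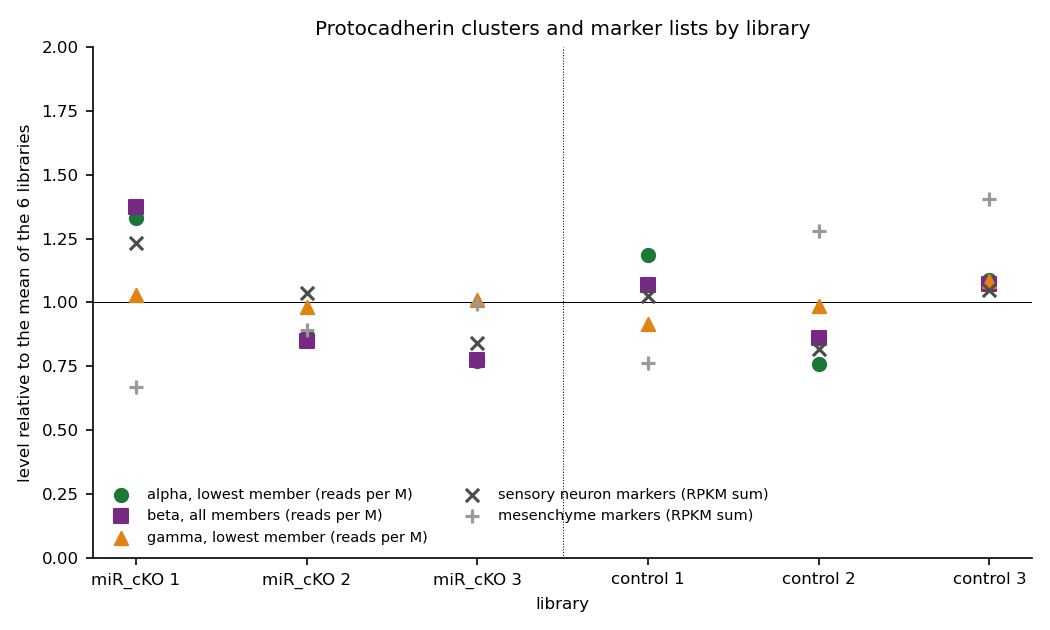
Level of each protocadherin cluster (coloured points, reads per M) and of the sensory neuron and mesenchyme markers (crosses and plus signs, summed RPKM) in each of the 6 libraries, divided by the mean over the 6. Alpha and beta lie together at the top in miR_cKO 1, at 76.1 and 75.6 reads per M, and at or near the bottom in miR_cKO 3, while gamma stays near 1.

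Under the assumption of the split, the excess gives a lower limit on the reads of each first exon. In the alpha cluster Pcdhac2, a C-type member needed in mice for the spacing of serotonergic axons, led in every library. Its excess was 12.3, 7.24 and 9.02 reads per M in miR_cKO 1 to 3 and 9.68, 5.76 and 9.67 in controls 1 to 3, which made up 11.7% to 16.9% of its reads. Pcdha12 came next at 4.41, 3.67 and 3.76 reads per M in miR_cKO 1 to 3 and 2.89, 3.40 and 3.78 in controls 1 to 3. The groups overlapped for both, as they did for all 14 alpha members.

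The excess of the other alpha members was smaller, which as a lower limit does not show how much RNA of their own they had. Pcdha7 had an excess of 3.48, 2.16 and 1.40 reads per M in miR_cKO 1 to 3 and 2.65, 2.37 and 3.00 in controls 1 to 3, and Pcdha11 one of 4.18, 1.22 and 1.90 in miR_cKO 1 to 3 and 2.70, 2.41 and 2.79 in controls 1 to 3. Pcdhac1, the other C-type alpha gene, had 0.742, 0.752 and 0.952 reads per M in miR_cKO 1 to 3 and 0.722, 0.860 and 0.207 in controls 1 to 3. The pair of C-type alpha genes thus lay far apart, one above and one below most Pcdha genes. Per kilobase of first exon, the mean excess over the 6 libraries was 3.36 RPKM for Pcdhac2, 1.46 RPKM for Pcdha12, 1.02 RPKM for Pcdha7 and Pcdha11 and 0.278 RPKM for Pcdhac1.

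In the gamma cluster Pcdhgc3 led in every library, with 69.8, 70.4 and 67.1 reads per M in miR_cKO 1 to 3 and 56.0, 83.2 and 83.9 in controls 1 to 3. These were 21.5% to 27.5% of its reads. It averaged 69.1 ± 1.78 reads per M in miR_cKO and 74.4 ± 15.9 in control libraries (SD, n = 3 each), so the spread was in the controls and the groups overlapped. Its mean excess of 26.9 RPKM over the 6 libraries stood beside 6.40 RPKM for the next member, Pcdhga11, 4.86 RPKM for Pcdhga3 and 4.82 RPKM for Pcdhgb6. The other C-type gamma genes were near the bottom, with 0.846 RPKM for Pcdhgc4 and, as the lowest member in every library, 0 for Pcdhgc5, which is a result of the split and does not show that this exon was silent.

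The deposited RPKM of gamma members did not follow this order in the case of Pcdhga12 and Pcdhgc5. Pcdhga12, with the longest fitted model of the cluster (5179 bases), had a deposited level of only 46.0, 43.7 and 44.7 RPKM in miR_cKO 1 to 3 and 40.9, 43.6 and 48.1 RPKM in controls 1 to 3. By mean excess it had 2.43 RPKM, above Pcdhgc5, whose deposited level was higher. For members with mostly shared reads, the length of the model divides the shared reads too, so the order of the deposited alpha and gamma levels is not an order of the members' own RNA.

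**Figure D4:**
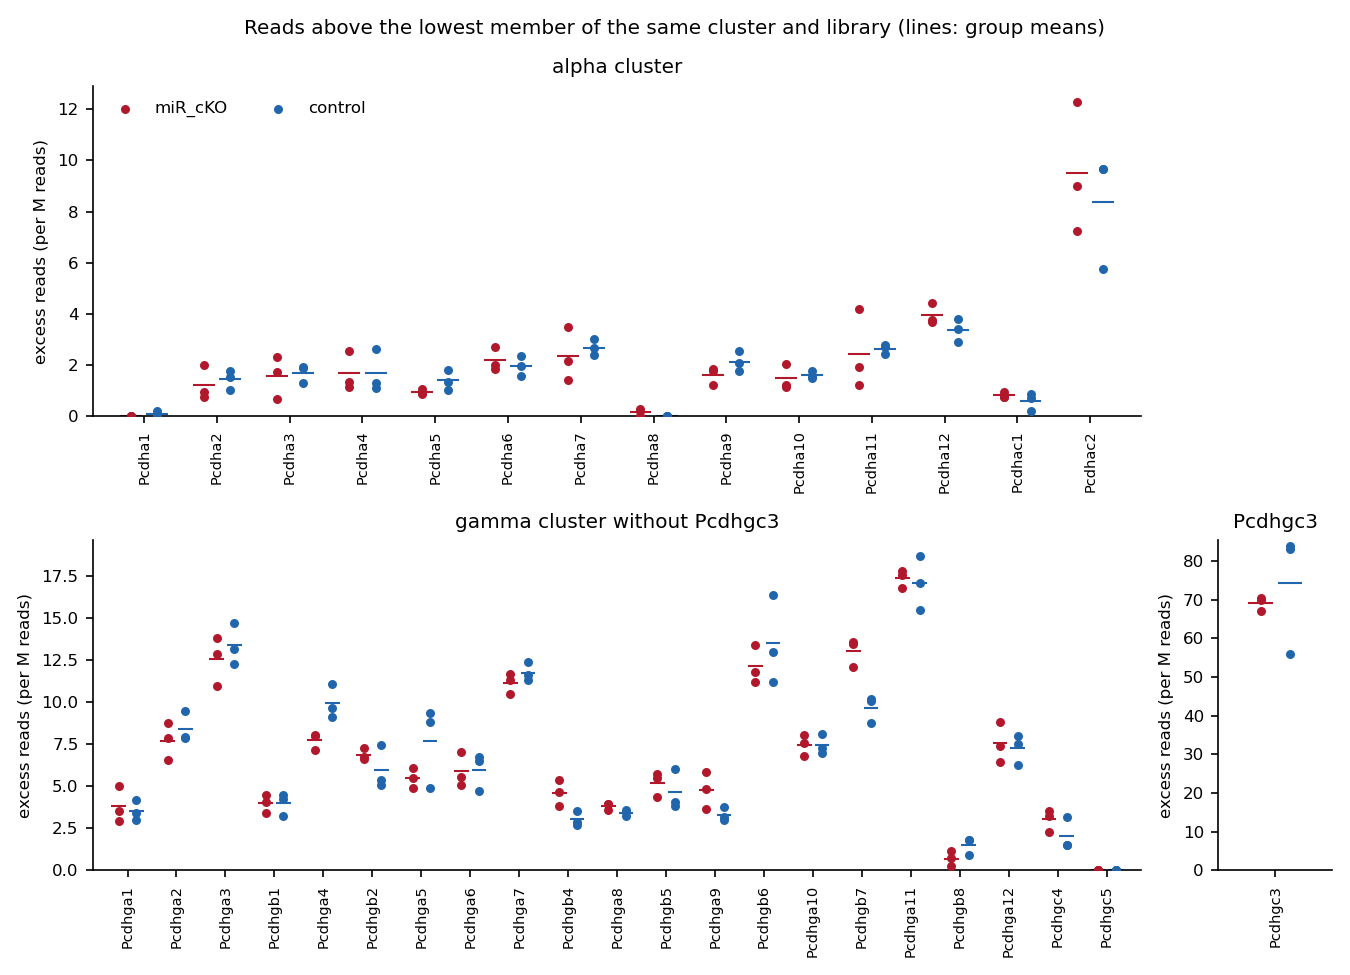
Excess reads per M mapped reads above the lowest member of the same cluster and library, for the alpha cluster, the gamma cluster and Pcdhgc3 on a scale of its own, in miR_cKO (red points, left) and control libraries (blue points, right) with lines at the group means. Pcdhac2, at 5.76 to 12.3, and Pcdhgc3, at 56.0 to 83.9 reads per M, stand above all other members of their clusters.

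The excess did not overlap between groups in 4 of 36 alpha and gamma members. Pcdhgb7 had 13.5, 12.1 and 13.6 reads per M in miR_cKO 1 to 3 and 8.76, 10.2 and 10.1 in controls 1 to 3. Pcdhgb4 had 4.64, 3.86 and 5.36 in miR_cKO 1 to 3 and 2.70, 3.53 and 2.90 in controls 1 to 3. Pcdhga4 had 8.07, 8.00 and 7.16 in miR_cKO 1 to 3 and 9.10, 9.68 and 11.1 in controls 1 to 3. Pcdhgb7 and Pcdhgb4 were thus higher and Pcdhga4 lower in all miR_cKO libraries, on 56 to 290 reads per library, and Pcdhga8 was higher only by a difference in the digits beyond 3.57 reads per M. These genes were picked for their pattern, the direction differs among them, and the RPKM of 10.9% of all tested genes did not overlap between groups either.

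Order along the cluster, as given by the number in the gene name, was set beside the excess as a description, over members that share libraries and baseline. Spearman's rho between number and mean excess was 0.61 over 12 Pcdha genes, 0.0070 over 12 Pcdhga genes and 0.036 over 7 Pcdhgb genes, and rho between number and mean level was 0.014 over the 21 detected beta genes. The mean excess was 0.0196 RPKM for Pcdha1, the first of the Pcdha genes, and 1.46 RPKM for Pcdha12, the last, with Pcdha8 between them at 0.0313 RPKM. One row outside the rule, Pcdha4-g, which carries an alpha symbol, was at 11.3, 10.9 and 10.4 RPKM in miR_cKO 1 to 3 and 8.99, 11.03 and 13.6 RPKM in controls 1 to 3. Like the gamma members, and unlike every alpha member, it was lowest in control 1 and highest in control 3.

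Genes that work with the clusters were looked at in the same fit. The non-clustered protocadherins, related adhesion proteins with single genes elsewhere in the genome, had 12 of 12 listed members tested, with 0 called by limma (0.0610% of all tested genes), 0 at an unadjusted p under 0.05 (5.16% of all tested genes) and a median log2 change of -0.066. With 12 genes, a count of 0 is near these shares of all genes. Pcdh15, a protein of hair cell tip links, had the smallest p (0.1735 in limma), with 3.91, 3.35 and 2.90 RPKM in miR_cKO 1 to 3 and 4.90, 3.22 and 4.45 RPKM in controls 1 to 3. Pcdh9 averaged 2.53 ± 0.516 RPKM in miR_cKO and 2.90 ± 0.270 RPKM in control libraries (SD, n = 3 each). Among these 12, 4 had a change above 0.

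The regulators of the clusters include the looping proteins Ctcf, Rad21 and Smc3, DNA methyltransferases and chromatin silencers. Of 18 listed and tested, limma called 0, with 0 at an unadjusted p under 0.05, beside 0.0610% and 5.16% of all tested genes, so that these counts too are near the shares of all genes. The median log2 change was 0.029. Rest, a repressor of neuronal genes, was at 4.11, 4.94 and 5.49 RPKM in miR_cKO 1 to 3 and 4.79, 7.36 and 6.62 RPKM in controls 1 to 3, a log2 change of -0.30 (unadjusted p 0.1037 in limma). Smc1a, a cohesin subunit, was at 52.9, 58.0 and 61.1 RPKM in miR_cKO 1 to 3 and 54.3, 54.1 and 50.4 RPKM in controls 1 to 3, a log2 change of 0.11 (unadjusted p 0.1742 in limma). The groups overlapped for all 4 genes named from these lists.

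Of 20 partners and effectors of the clustered protocadherins, 18 were tested (Ptk2b and Nlgn1 were under the filter), 0 were called by limma and 3 had an unadjusted p under 0.05, beside 5.16% of all tested genes. Fyn, a Src family kinase found bound to alpha protocadherins, was at 60.5, 59.9 and 53.9 RPKM in miR_cKO 1 to 3 and 47.5, 47.8 and 45.3 RPKM in controls 1 to 3. It averaged 58.1 ± 3.62 RPKM in miR_cKO and 46.9 ± 1.36 RPKM in control libraries (SD, n = 3 each), and its log2 change was 0.30 (SE 0.068) with an adjusted p of 0.3645 in limma. All 3 miR_cKO libraries were above all 3 controls, beside 10.9% of all tested genes whose groups did not overlap in either direction. The adjusted p did not pass the threshold, and Fyn was named for its small p.

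Nlgn2, an adhesion protein of inhibitory synapses, was at 28.8, 25.4 and 28.0 RPKM in miR_cKO 1 to 3 and 21.1, 21.5 and 24.2 RPKM in controls 1 to 3. Its log2 change was 0.29 (SE 0.081) with an adjusted p of 0.6184 in limma, again with no overlap of the groups. The third gene, Rac1, a regulator of the actin cytoskeleton named after its value was seen, had a log2 change of 0.15 (SE 0.065) with an adjusted p of 0.9644 in limma. The median over the 18 was 0.0080, and 10 of them had a change above 0.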

How the data were processed

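RNA from lumbar DRG was extracted with Trizol and made into stranded libraries of polyadenylated RNA, per the labels' protocols. Bowtie served for alignment and mm10 as the genome build, per the submitters' processing notes. How reads were counted, on which annotation, and where reads that fit several genes went was not given in the sources used here. A single table was deposited by the authors, of 24264 genes and 6 columns with decimal commas and no named unit. These deposited values were read as RPKM because they are whole multiples of a step set by gene length and library depth; RPKM and FPKM cannot be told apart. The steps gave the depth of each library (19.3 to 23.2 M reads, from 4196 genes) and whole reads, within 0.02 read, for 12887 of 13118 tested genes (98.2%) and for 57 members (largest deviation 0.0057 read). Model lengths fitted in this way were within 150 bases of the GENCODE M21 transcript for 46 of 56 members.

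Values with a pseudocount of 1 RPKM were tested on the log2 scale with limma 3.58.1 (R 4.3.3; trend and robust settings, two-sided), with 3 miR_cKO against 3 control libraries and no covariate. An exact permutation test of 3 against 3 cannot go below 0.1, so none was used. The script was checked on simulated data. Tables were handled in Python 3.11.15 with pandas 2.3.3, NumPy 2.4.6 and SciPy 1.17.1, and plots were drawn with matplotlib 3.10.9. The sources used here do not state that replicate numbers mark a litter or day, so no block was used in the main fit.

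The members and the gene lists were chosen with earlier results of these data known. Members were named as follows: the C-type genes, the 3 highest in mean of each subclass, the 3 smallest p in each direction, and any called or not overlapping; members with a seed match, a leading excess or a place at the filter were added after their values were seen. From each related list the 2 smallest p were named. Alternatives concerned scaling, filter, pseudocount, variance prior, weights, replicate block and left-out libraries. Member sequences are not printed here.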

Additional observations from a re-analysis of the deposited data

How the results depend on the processing

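The count of members past the threshold was 0 in every fit tried, over the 39 to 57 members each fit took in, with no such member at an unadjusted p under 0.05 in any of the 15. The count over all genes was less stable. Against 8 genes, it was 0 with upper quartile scaling, 2 with median centring, 0 with a filter at 0.1 RPKM, 0 without the variance trend, 34 with array weights (29 higher and 5 lower), 9 without a filter and 7 with a pseudocount of 0.1. With the replicate number as a block it was 0, with 847 genes at an unadjusted p under 0.05. Deviations from the group means had correlations of 0.359, 0.33 and -0.221 between same-numbered libraries. Between unlike-numbered libraries they ran from -0.7 (miR_cKO 1 with control 2) to 0.524 (miR_cKO 3 with control 2). These values do not settle whether the numbers pair the libraries. The count over all genes was 0 to 2 when any 1 library was left out.

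The sign of a member's change was not settled where the change was near 0. With array weights it turned for Pcdhb7 (-0.13), Pcdhga2 (-0.022), Pcdhgb1 (-0.023), Pcdhga4 (-0.034), Pcdhgb4 (-0.014), Pcdhgb7 (-0.0041), Pcdhga11 (-0.019), Pcdhgc4 (-0.019) and Pcdhgc5 (-0.021). With median centring it turned for Pcdha12 (0.0045), Pcdhac2 (0.020), Pcdhb22 (0.021) and Pcdhgc3 (0.024), and with upper quartile scaling for Pcdhac2 (0.0051) and Pcdhgc3 (0.010). The cause was not tested.

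Leaving out 1 library at a time gave log2 changes of -0.27 to 0.10 for Pcdha7, -0.26 to 0.095 for Pcdha9, -0.27 to 0.097 for Pcdha11, -0.23 to 0.11 for Pcdha12, -0.24 to 0.11 for Pcdhac1 and -0.22 to 0.12 for Pcdhac2. Beta members gave -0.093 to 0.10 for Pcdhb7, -0.070 to 0.24 for Pcdhb17 and -0.19 to 0.050 for Pcdhb20. Pcdhb9 (-0.23 to -0.029) and Pcdhb22 (-0.11 to 0.074) passed the filter in only 3 of these 6 fits, without control 2, miR_cKO 2 or miR_cKO 3. Gamma members gave -0.040 to 0.079 for Pcdhga2, -0.033 to 0.082 for Pcdhgb1, -0.050 to 0.070 for Pcdhga4, -0.027 to 0.091 for Pcdhgb4, -0.017 to 0.10 for Pcdhgb7, -0.031 to 0.083 for Pcdhga11, -0.095 to 0.064 for Pcdhgc3, -0.031 to 0.092 for Pcdhgc4 and -0.036 to 0.083 for Pcdhgc5. The cluster sums gave -0.299 to 0.121 for alpha, -0.308 to 0.132 for beta and -0.0397 to 0.0825 for gamma. The alpha and beta extremes came from leaving out miR_cKO 1 or miR_cKO 3.

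Other baselines for the excess reads were chosen after seeing the data. Over the 14 alpha and 22 gamma members, the second lowest as baseline left 4 whose groups did not overlap. These were Pcdhgb4 and Pcdhgb7 (higher) and Pcdhga4 and Pcdha5 (lower). The mean of the 3 lowest left 5 (Pcdhgb4 and Pcdhgb7 higher, Pcdhga4, Pcdha9 and Pcdhgb8 lower). The RPKM of 10.9% of all tested genes did not overlap between groups either. All baselines use the same reads, so a gene that recurs is not found independently. With 8 to 198 reads per library, depth limits the beta members most.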
